A study of Mus musculus with 6 samples.

Results

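Prss55 lies on mouse chromosome 14, and 164 named genes around it were described, from 56.7 to 72.7 Mb of the chromosome in the build that the array files name, mm9 (NCBI37). They are the genes with a symbol whose probe the files place within 8 Mb on either side of Prss55. Of 176 such genes, 12 were set aside, namely Prss55 itself, Prss51, Prss52, Adam2, Adam7, Adam28, Adamdec1, Defb42, Serpine3, Spata13, Pnoc and Scara5. The 164 are a small part of the 21249 named genes on the array. Genes were tested if a probe cleared the background (called well above it by the scanner software) on every array of one genotype or the other, which held for 133 genes (204 of 270 probes), out of 16583 named genes tested on the whole array. The other 31 were too dim to test, among them Blk, Fgf17, Chrna2, Stc1, Nefm and the granzymes Gzmb to Gzmg. By symbol, accession or synonym, 151 of the 164 matched the RefSeq annotation of GRCm38.p6, and all 151 lay on chromosome 14 there, 141 of them as protein-coding genes.

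Total RNA came from the testes of 3 Prss55-/- and 3 wt male mice, 6 to 8 weeks old, all of a mixed 129Sv and C57BL/6 background, and each RNA was hybridised in a single dye to one whole mouse genome array. In the Prss55-/- mice the third exon of Prss55 had been replaced in embryonic stem cells by a PGK-Neo selection cassette in reverse orientation, and heterozygotes had been intercrossed. The wt mice carry no cassette. The strain of the stem cells was not given in the sources used here.

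Prss55 encodes a membrane-anchored serine protease of testis and sperm. In a line made by gene targeting, the chromosome on both sides of the targeted gene comes from the stem cell and is passed on together with the targeted allele, until crossovers replace it with the chromosome of the strain used for breeding. Genes beside a cassette with its own promoter can also change locally. The comparison asks how the differences between Prss55-/- and wt testis run with distance from Prss55. The arrays measured RNA and no strain markers, so that an inherited stretch and a local effect of the targeted allele cannot be told apart by them.

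Some facts of the whole series bear on the results. On each array 69.5 to 72.9% of the spots were well above background and 0 were saturated. All 3 Prss55-/- arrays were on one slide and the wt arrays on 2 others, so that slide and genotype cannot be told apart. The median log2 difference over all tested probes was 0.0019. One array, Prss55-/- replicate 1, stood apart from the other Prss55-/- arrays in 3.09% of all named genes by a rule described below, against 0.494 to 2.20% for each of the other 5 arrays. Markers of elongating spermatids were bright on all arrays, summing to between 20.10 and 20.26 on the log2 scale, and of 4 epididymal markers 1 was bright enough to test. Of 29 tested cell type markers, limma called 0 at an adjusted p of 0.05, with 8 at an unadjusted p under 0.05 (6 and 0 by the methods' t-test, without and with adjustment). Over all named genes the limma shares were 1.56% with and 25.5% without adjustment. The 3 tested markers of Leydig cells summed to 14.79 to 15.44 in Prss55-/- and 15.45 to 15.63 in wt testis, and their part in the results below was not tested. In whole testis, fewer cells of a type and less RNA per cell cannot be told apart.

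The probes are 60 bases long, and the first 30 bases of some are given. They were read from the array files, each with its place in mm9. In the Prss55 probe the capitals mark 24 bases that match the reverse complement of the study's primer for the end of the coding sequence, at positions 3 to 26 of the probe. This is not the replaced exon, so the probe does not check the deletion. The paper itself reported the loss of Prss55 RNA by RT-PCR and of the protein by Western blotting and immunofluorescence. The Dock5, Wdfy2 and Pinx1 probes are shown because probes of the same gene gave different results.
Prss55, minus strand, chr14:64694275-64694333: tgCTTAGAGCCTTGTCCAACTGGAAAtaaa
Dock5, minus strand, chr14:68373821-68373880: tatgccttggattccatggaagctctttgg
Dock5, minus strand, chr14:68433817-68433876: gtggccactgaatacagagctttaacacct
Dock5, minus strand, chr14:68370263-68370322: tccttcaccatgagtttataacttactggg
Wdfy2, plus strand, chr14:63580171-63580230: aagatgactgactgtatgtatcctgtgcaa
Wdfy2, plus strand, chr14:63575126-63575185: atgaccccagtggtgtcatgatgactcgcc
Pinx1, plus strand, chr14:64538435-64538494: aagaagaagaagaaagtttccagataactt
Pinx1, plus strand, chr14:64491183-64496959: aaatccaaaatctccaaaaaccgggttcat
The last of these spans more than its 60 bases on the chromosome, as a probe across a spliced junction does. No genome sequence or exon map of mm9 was used here, so the probes are not assigned to exons, introns or untranslated regions.

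The Prss55 probe itself was bright on every array. Its quantile-normalized log2 intensity was 15.08, 14.95 and 14.93 in Prss55-/- replicates 1, 2 and 3 and 15.87, 15.77 and 16.01 in wt replicates 1, 2 and 3. All Prss55-/- values lay below all wt values, with a log2 difference of -0.90 (SE 0.08, limma adjusted p = 0.010). The call was lost without Prss55-/- replicate 2 (adjusted p = 0.060), without Prss55-/- replicate 3 (0.070) and without wt replicate 1 (0.063). In what follows, values per array are given in this order of replicates and on this scale, and a difference is Prss55-/- minus wt. For a single value, an exact permutation test of 3 against 3 arrays (two-sided) cannot go below p = 0.10, so calls rest on limma over all tested probes.

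Of the 133 tested genes, 11 (8.27%) passed a limma adjusted p of 0.05, while 1.56% of all named genes tested did. In Prss55-/- testis 6 of the 11 were higher and 5 lower, where over all named genes 0.826% were called higher and 0.748% lower. In the rest of chromosome 14, 10 of 463 tested genes (2.16%) were called, and 1.46% on the other chromosomes. At an unadjusted p under 0.05 the shares were 38.3% of the 133 and 25.5% of all named genes. The values of the 2 genotypes did not overlap in the brightest probe of 53 of the 133 genes (39.8%), beside 28.1% of all named genes. The median absolute log2 difference was 0.13 over the 133 and 0.09 over all named genes, with medians of the signed difference of -0.02 and -0.0037. With only probes above background on all 6 arrays, 10 of 128 genes (7.81%) were called, beside 1.87% of all named genes. 9430085L16Rik, tested only through wt testis where it was higher, was then left out. The count also depended on single arrays. Without Prss55-/- replicate 1, 20 of the 133 genes were called, beside 3.97% of all named genes. Without Prss55-/- replicate 2 or 3 it was Dock5 alone, beside 0.241% and 0.151%, and without wt replicate 1 or 2 it was 3 genes, beside 0.271% and 0.501%.

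**Figure D1:**
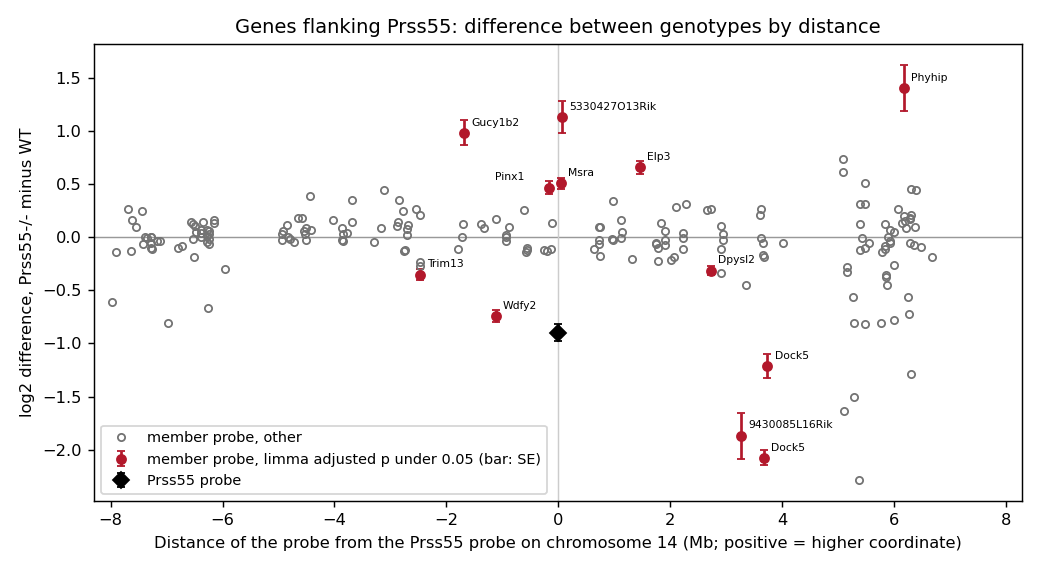
Log2 difference between Prss55-/- and wt testis (vertical axis) of the 204 tested probes of the flanking genes and of Prss55 (black diamond) against distance from the Prss55 probe in Mb (horizontal axis); red points passed a limma adjusted p of 0.05 and carry their SE and gene name. The called probes run from 2.48 Mb below to 3.74 Mb above Prss55, with Phyhip alone at 6.17 Mb, and a cloud of larger, uncalled differences lies from about 5 Mb above.

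Dock5, a guanine nucleotide exchange factor that activates Rac, had the largest called difference of the 133 genes, which leave out the 12 set aside. Its brightest probe read 8.35, 8.52 and 8.54 in Prss55-/- and 10.53, 10.49 and 10.61 in wt testis. The 2 groups stood 1.96 apart at their nearest values, and the log2 difference was -2.08 (SE 0.07, limma adjusted p = 0.00060). A second Dock5 probe, 3.74 Mb from Prss55, read 6.36, 6.13 and 6.24 against 7.49, 7.64 and 7.23, a difference of -1.21 (adjusted p = 0.012). The third, beside the first at 3.68 Mb, read 8.93, 9.11 and 9.09 against 9.18, 9.29 and 9.22. Its difference of -0.18 was not called (adjusted p = 0.23), although the groups did not overlap. Of the 12 called probes of these genes, only the brightest Dock5 probe stayed past the threshold whichever array was left out. Its adjusted p values then reached up to 0.0078, and at most 0.029 over all alternatives.

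Near Dock5, at 3.27 Mb above Prss55, the unmatched transcript 9430085L16Rik was low in all Prss55-/- arrays. Its probe read 3.79, 3.98 and 3.27 in Prss55-/-, not well above background on any of these arrays, and 5.38, 5.86 and 5.41 in wt testis. Set against the lowest signal well above background on each Prss55-/- array, the wt level was at least 1.53-fold higher (adjusted p = 0.023 for the measured difference of -1.87). Dpysl2, a microtubule-binding protein known from growing axons, read 9.43, 9.40 and 9.42 against 9.74, 9.75 and 9.70 in its brighter probe. That small difference of -0.31 was called (adjusted p = 0.037), with an SD of 0.02 in each genotype. The other Dpysl2 probe read 7.80, 7.75 and 7.71 against 7.33, 7.30 and 7.82, the opposite direction and an overlap with wt replicate 3, and was not called (difference 0.27, adjusted p = 0.35).

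Beside Prss55, 3 genes were higher in every Prss55-/- array than in every wt array. The Msra probe lies 0.05 Mb above that of Prss55. Msra, the methionine sulfoxide reductase that repairs oxidised methionine, read 10.63, 10.57 and 10.54 in Prss55-/- and 10.12, 10.03 and 10.06 in wt testis (difference 0.51, SE 0.05, adjusted p = 0.014). The transcript 5330427O13Rik, on the same strand 0.07 Mb above, read 7.07, 7.08 and 7.10 against 6.25, 5.97 and 5.63. Here the 3 Prss55-/- arrays agreed closely and the wt arrays spread, and the difference was 1.13 (SE 0.15, adjusted p = 0.035). Pinx1, a nucleolar protein that binds telomerase, lies 0.16 Mb below. Its brighter probe read 11.92, 11.83 and 11.81 against 11.47, 11.39 and 11.30 (difference 0.47, adjusted p = 0.035). Its other probe read 8.05, 7.97 and 8.02 against 8.15, 8.19 and 8.09, a difference of -0.13 in the other direction that was not called (adjusted p = 0.23). Each of these 3 genes lost its call without wt replicate 2, and likewise without Prss55-/- replicate 2 or 3.

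Most genes next to these were not called. Of the 16 tested genes within 1 Mb of Prss55, 3 were called (18.8%, beside 1.56% of all named genes). The other 13 were not called, with differences between -0.14 and 0.26. They are Ctsb (cathepsin B), Fdft1 (squalene synthase), Gata4 (a transcription factor of Sertoli and Leydig cells), Fam167a, Tdh (threonine dehydrogenase), Mtmr9, Xkr6, Sox7, 4930578I06Rik, Kif13b (a kinesin), Hmbox1, Ints9 (Integrator subunit) and Extl3. Fdft1 read 14.56, 14.64 and 14.64 in Prss55-/- and 14.56, 14.66 and 14.54 in wt testis, and its 95% interval ran from -0.11 to 0.16. Sox7, at 0.12 Mb below, read 7.94, 8.10 and 8.18 against 8.16, 8.23 and 8.17. Between Pinx1 and Msra, 4930578I06Rik read 14.40, 14.36 and 14.30 against 14.13, 14.09 and 14.42, with wt replicate 3 above all Prss55-/- arrays.

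Further out, 4 more genes were called. Elp3, the catalytic subunit of Elongator that modifies transfer RNAs, lies 1.46 Mb above and read 12.01, 11.88 and 11.88 against 11.21, 11.27 and 11.30 (difference 0.66, SE 0.06, adjusted p = 0.0098). Gucy1b2, a subunit of soluble guanylate cyclase, lies 1.68 Mb below and read 8.20, 8.18 and 8.06 against 7.08, 7.00 and 7.41 (difference 0.98, SE 0.12, adjusted p = 0.024). Both were higher in all Prss55-/- arrays, with no overlap. Wdfy2, a phosphoinositide-binding protein of early endosomes, lies 1.11 Mb below and fell, with readings of 10.47, 10.39 and 10.33 against 11.19, 11.11 and 11.11 (difference -0.74, SE 0.06, adjusted p = 0.0072). A dimmer Wdfy2 probe read 6.81, 6.50 and 6.64 against 6.56, 6.43 and 6.44, overlapped between genotypes and was not called (0.18, adjusted p = 0.35). Trim13, a ubiquitin ligase of the endoplasmic reticulum, was the farthest called gene below Prss55, at 2.48 Mb. Its called probe read 7.82, 7.88 and 7.93 against 8.27, 8.24 and 8.18 (difference -0.35, adjusted p = 0.045), and lost the call when any single array was left out. Its brighter probe went the same way and missed the threshold (-0.27, adjusted p = 0.062).

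**Figure D2:**
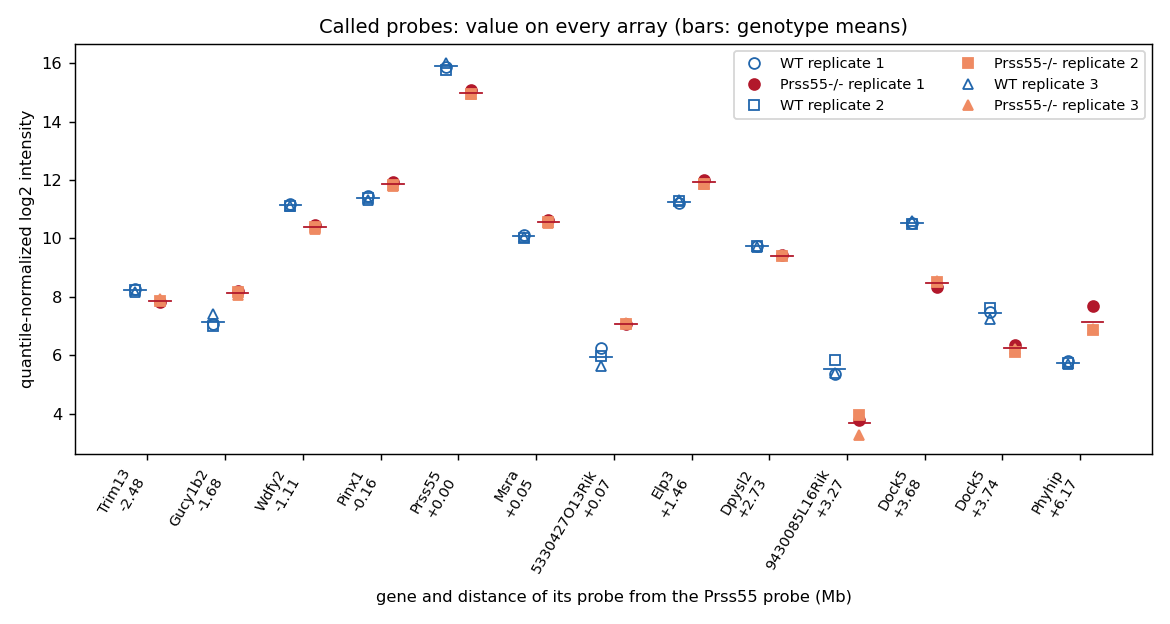
Quantile-normalized log2 intensity (vertical axis) on each of the 6 arrays for the Prss55 probe and the 12 called probes of 11 flanking genes, in order along the chromosome with the distance in Mb (horizontal axis); open blue symbols are wt, filled red (replicate 1) and orange symbols Prss55-/-, short lines the means of 3. The genotypes do not overlap in any of them, and Prss55-/- replicate 1 lies away from replicates 2 and 3 in Phyhip.

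More than one probe was tested for 55 of the genes. Of the 11 called genes 6 had a single tested probe, and the other 5 (Trim13, Wdfy2, Pinx1, Dpysl2 and Dock5) each had a called and an uncalled one. In Wdfy2, Pinx1 and Dpysl2 the uncalled probe had the opposite sign. No called gene with several probes was called in all of them.

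By distance, the calls of the fit with all arrays lay mostly within 4 Mb of Prss55. Within 2 Mb on either side 6 of 30 genes (20.0%) were called, from 2 to 4 Mb 4 of 31 (12.9%), from 4 to 6 Mb 0 of 30 and from 6 to 8 Mb 1 of 42 (2.38%), beside the 1.56% of all named genes. In bins of 4 Mb these are 10 of 61 and 1 of 72. Taken by side, the counts below Prss55 were 3 of 15, 1 of 16, 0 of 11 and 0 of 24, and above it 3 of 15, 3 of 15, 0 of 19 and 1 of 18. Of the 35 genes over 4 Mb below, limma called 0, with 7 at an unadjusted p under 0.05 (8 by the methods' t-test, 0 after adjustment). Of the 19 genes from 4 to 6 Mb above it also called 0, but 10 had an unadjusted p under 0.05 (9 by the methods' t-test, 0 after adjustment). By limma, 25.5% of all named genes had an unadjusted p under 0.05. The fall with distance depended on 1 array and on the rule. Without Prss55-/- replicate 1 the bins from near to far held 6, 5, 6 and 3 calls, beside 3.97% of all named genes. At an unadjusted p under 0.05 and 2-fold, with all arrays, they held 1, 2, 2 and 2 genes.

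The size of the differences did not follow the same order. Across the 133 genes the absolute log2 difference and the distance had a Spearman correlation of 0.0053, with -0.12 over the 66 genes below and 0.15 over the 67 above. These genes share 6 arrays and are not independent. The median absolute log2 difference below Prss55 was 0.12, 0.13, 0.06 and 0.11 in the 4 bins from near to far. Above Prss55 it was 0.10, 0.21, 0.32 and 0.21, so that it was largest from 4 to 6 Mb, where no gene was called.

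**Figure D3:**
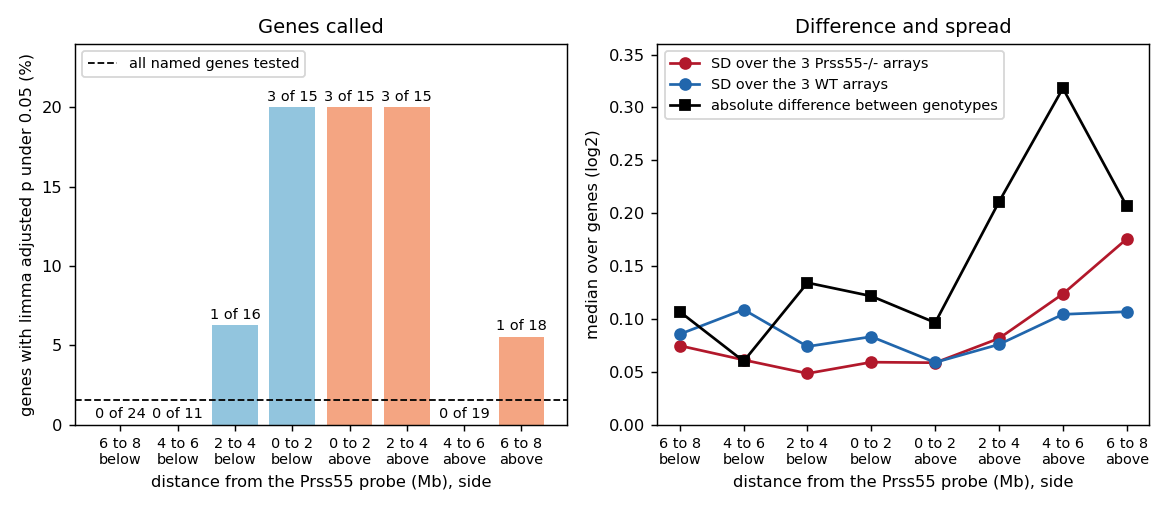
Left, percent of tested flanking genes past a limma adjusted p of 0.05 in 2 Mb bins of distance on each side of Prss55, with the counts above the bars and the 1.56% of all named genes as a dashed line; right, the median over genes of the absolute log2 difference (black) and of the SD over the 3 arrays of each genotype (red Prss55-/-, blue wt). Calls reach 20.0% within 2 Mb on each side and from 2 to 4 Mb above. The difference is largest from 4 to 6 Mb above and the Prss55-/- spread from 6 to 8 Mb above.

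The spread among the Prss55-/- arrays also rose above Prss55. The median SD over the 3 Prss55-/- arrays was 0.06 within 2 Mb above, 0.08 from 2 to 4 Mb, 0.12 from 4 to 6 Mb and 0.18 from 6 to 8 Mb, beside 0.07 over all named genes. Below Prss55 it stayed between 0.05 and 0.07 in all 4 bins. In wt testis the medians above Prss55 were 0.06, 0.08, 0.10 and 0.11, beside 0.08 over all named genes.

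From 4 to 6 and from 6 to 8 Mb above Prss55, the median gap of Prss55-/- replicate 1 from the mean of the other Prss55-/- arrays was 0.20 and 0.28, against 0.10 and 0.15 for replicate 2 and 0.07 and 0.16 for replicate 3. An array was counted as standing apart in a gene if it lay at least 0.5 from the mean of the other 2 arrays of its genotype while those lay within 0.25 of each other, a rule set after the values were seen. Prss55-/- replicate 1 stood apart in 9 of the 133 genes, and 7 of the 9 lie among the 37 genes over 4 Mb above Prss55. Over all named genes it stood apart in 3.09%. The other 5 arrays stood apart in 0 to 2 of the 133 genes each. The 7 are Entpd4 (a nucleotidase of the Golgi and lysosome), Tnfrsf10b (the receptor of the death ligand TRAIL), Pebp4, 1700031C06Rik, Phyhip, Hr (the hairless corepressor) and B930095I24Rik. The other 2, both nearer to Prss55, are Scara3 at 1.84 Mb and the transcription factor Ebf2 at 3.35 Mb. Ebf2 read 5.91 in Prss55-/- replicate 1, but 7.00 and 7.23 in the others and 7.04, 7.19 and 7.27 in wt testis, so that replicate 1 alone was low.

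**Figure D4:**
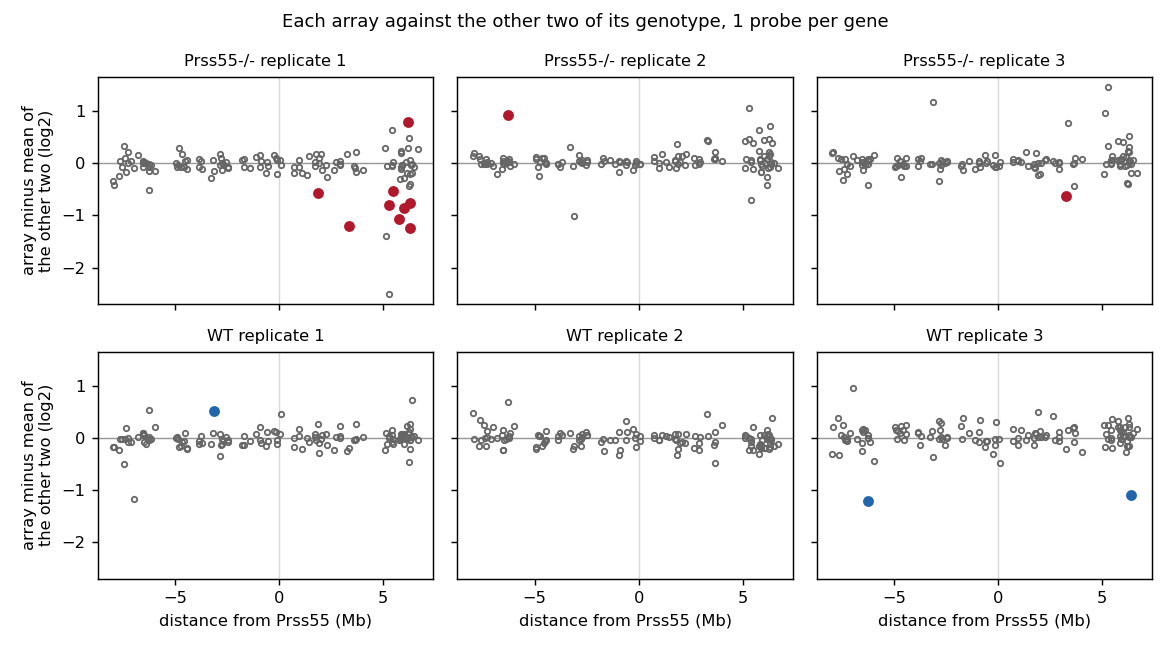
Each panel plots, for 1 array, its value minus the mean of the other 2 arrays of its genotype (log2, vertical axis) for the brightest probe of each of the 133 tested genes against distance from Prss55 in Mb; filled points meet the rule for standing apart. Prss55-/- replicate 1 has 9 filled points, 7 of them over 4 Mb above Prss55, and the other arrays have 0 to 2.

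From about 5 Mb above Prss55, genes moved in all 3 Prss55-/- arrays but to unequal extent. 1700031C06Rik read 12.68 in Prss55-/- replicate 1, 13.55 and 13.52 in replicates 2 and 3, and 13.95, 14.07 and 14.06 in wt testis. Entpd4 read 10.60, then 11.43 and 11.35, and 11.97, 11.93 and 11.92 in wt testis. In both genes replicates 2 and 3 lay close together, between replicate 1 and wt. Pebp4, of the phosphatidylethanolamine-binding family, did so in one probe (12.85, 13.99 and 13.84 against 14.33, 14.26 and 14.50), while its other probe overlapped between genotypes (13.69, 13.74 and 13.66 against 13.74, 13.75 and 13.78). Hr read 7.82, 8.64 and 8.54 against 9.02, 8.91 and 9.23. Reep4, a protein that keeps endoplasmic reticulum off mitotic chromosomes, read 12.31, 12.75 and 12.76 against 13.24, 13.20 and 13.07. B930095I24Rik read 7.30, 8.60 and 8.46 against 9.53, 9.29 and 9.42. In these probes all 6 genes were lower in every Prss55-/- array than in any wt array, lowest in replicate 1, and none was called with all arrays (adjusted p 0.11 to 0.23).

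Others went up by the same pattern. Phyhip, which interacts with the peroxisomal enzyme phytanoyl-CoA hydroxylase, read 7.68, 6.88 and 6.90 in Prss55-/- and 5.80, 5.73 and 5.71 in wt testis. It was highest in replicate 1, with replicates 2 and 3 together and all 3 above wt, and was called with a difference of 1.41 (SE 0.22, limma adjusted p = 0.049). Without replicate 1 the difference was 1.14 (adjusted p = 0.0018). The call of Phyhip was lost when any other single array was left out (adjusted p 0.079 to 0.17). Nkx2-6, a homeobox gene and the brightest transcription factor of the region, read 15.89, 15.64 and 15.56 against 14.93, 15.08 and 15.24 in one probe and 11.87, 11.49 and 11.53 against 10.72, 10.94 and 11.01 in the other. Neither was called (0.62, adjusted p = 0.071, and 0.74, adjusted p = 0.061). The 2 probes of Tnfrsf10b went in opposite directions. The brighter read 8.61, 9.22 and 9.06 against 9.70, 9.62 and 10.02, and the dimmer 6.91, 6.70 and 6.75 against 6.07, 6.14 and 6.62, and neither was called (adjusted p = 0.095 and 0.16).

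On the linear intensity scale the place of replicates 2 and 3 can be given as a share of the way from the wt mean to replicate 1. This was done for probes that were well above background on all 6 arrays, differed by at least 0.5 on the log2 scale and did not overlap between genotypes, a choice made after the values were seen. Over 4 Mb above Prss55, 12 such probes of 9 genes lay at 41.3 to 66.0% of the way, with a median of 53.6%. Among them 1700031C06Rik was at 47.4%, Entpd4 at 49.8% and 52.1% in its 2 probes, Hr at 48.5%, Reep4 at 55.6%, Phyhip at 42.9% and Pebp4 at 41.3%. Within 4 Mb of Prss55, 7 probes of 6 genes (Gucy1b2, Wdfy2, Msra, 5330427O13Rik, Elp3 and both called Dock5 probes) lay at 78.6 to 113% of the way, with a median of 96.3%. The 2 sets of probes did not overlap in this share. Over 498 such probes on the whole array the median was 110%, with quartiles of 85.4% and 178%. With replicate 2 or 3 in the place of replicate 1, the 12 probes were at 112 to 207% and the 7 probes at 90.3 to 120%. The last called gene on which the 3 Prss55-/- arrays agreed is Dock5 at 3.68 to 3.74 Mb, and the first gene with the intermediate pattern is Nkx2-6 at 5.10 Mb.

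**Figure D5:**
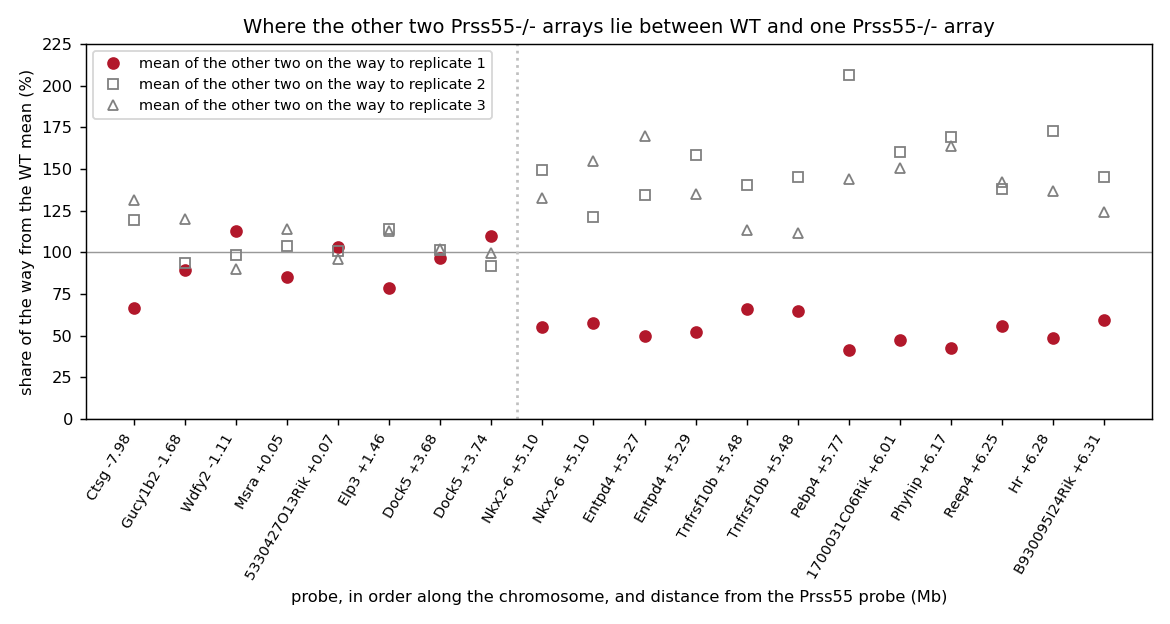
For each probe that differed by at least 0.5 (log2) without overlap between genotypes, in order along the chromosome (horizontal axis, distance in Mb), the mean of 2 Prss55-/- arrays as a percent of the way from the wt mean to the remaining Prss55-/- array on the linear scale (vertical axis); filled red circles are the way to replicate 1, open symbols the way to replicate 2 or 3. Left of the dotted line, at 4 Mb above Prss55, the 7 probes within 4 Mb lie at 78.6 to 113% by the red circles and Ctsg, at 7.98 Mb below, at 66.7%, whereas right of it the red circles fall to 41.3 to 66.0%.

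Not every gene of that stretch behaved alike. Slc25a37, the mitochondrial iron importer mitoferrin, read 10.95, 11.05 and 10.98 against 11.25, 11.35 and 11.38, with the 3 Prss55-/- arrays close together. Pdlim2, a cytoskeletal protein with a role in ubiquitination, read 10.42, 10.18 and 10.28 against 10.74, 10.61 and 10.89, with replicate 1 nearest to wt. Loxl2, a lysyl oxidase, read 9.33, 8.44 and 8.95 against 9.13, 8.92 and 9.02, overlapping between genotypes. Chmp7, Sorbs3, Bin3 and Ppp3cc overlapped between genotypes, with differences of -0.01, 0.01, -0.11 and -0.04. Leaving out replicate 1 raised the calls from 1.56% to 3.97% of all named genes. Of the 37 genes over 4 Mb above Prss55, 9 then passed (1 with all arrays), among them Phyhip, Nkx2-6, Slc25a37, Entpd4, Gm21464, 9930012K11Rik, 1700031C06Rik and B930095I24Rik. Over 4 Mb below it 0 of the 35 did so, with or without that array.

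By the study's own rule of an unadjusted p under 0.05 and at least 2-fold, 7 of the 133 genes passed, beside 0.832% of all named genes. All 7 lay above Prss55, among them 5330427O13Rik, 9430085L16Rik, Dock5, Gm21464, Phyhip and B930095I24Rik. Of the 7, 3 missed the adjusted threshold, Gm21464 and B930095I24Rik among them. 9430085L16Rik and Gm21464 were tested only because they cleared the background in wt testis, where they were higher. With only probes above background on all 6 arrays 4 genes passed, and with normexp background 2. Gm21464 read 2.72, 4.66 and 4.92 against 6.31, 6.33 and 6.53 in one probe and 2.88, 5.25 and 5.51 against 6.05, 5.90 and 6.21 in the other, and in Prss55-/- testis each cleared the background on 1 of 3 arrays. The second of these probes shares 50 bases with an Entpd4 probe on the opposite strand, and RefSeq lists a second copy, Entpd4b, so signals of Entpd4, its copy and Gm21464 are uncertain.

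By role, the called genes that were on a list were spread over 5 of 7 lists of the region's genes. Trim13, Gucy1b2, 5330427O13Rik, 9430085L16Rik and Phyhip were on none of them. Of all 133 tested genes 8.27% were called, and of all named genes 1.56%. With 8 to 14 tested genes a list, the counts are too small to be read as a result about a role. Of the 8 tested germ cell and chromosome genes, Pinx1 was called higher and none lower, and the median log2 difference was -0.02. The brightest were Ppp3cc, the sperm form of the calcineurin catalytic subunit (-0.04), and Cdca2, a chromosome-bound phosphatase regulator (0.21, adjusted p = 0.19). Of 11 transcription factors limma called 0, with 4 at an unadjusted p under 0.05 (3 by the methods' t-test, 0 after adjustment). The limma share at that unadjusted threshold was 25.5% over all named genes. The brightest transcription factor after Nkx2-6 was Zmym2 (-0.03). Of 10 ligands and receptors limma also called 0, with 1 at an unadjusted p under 0.05 (likewise 1 by the methods' t-test, 0 after adjustment). Clu, the secreted chaperone clusterin, read 16.44, 16.44 and 16.46 against 16.45, 16.57 and 16.52, and Il17d had a difference of 0.13. Of 14 cytoskeleton and transport genes Dock5 and Dpysl2 were called lower, while Bin3 (-0.11) and Ift88, of the intraflagellar transport complex (0.15), were not called.

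Of 12 genes of metabolism and membrane transport Msra was called higher and 7 had an unadjusted p under 0.05, beside 25.5% of all named genes. Mipep, a mitochondrial peptidase and the brightest of them, differed by 0.08 and Fdft1 by 0.03. Of 9 RNA and chromatin genes Elp3 was called higher, and the brightest, Sap18 (-0.05) and Ints6 (0.12), were not called. Of 11 genes of kinases, phosphatases and signalling Wdfy2 was called lower, and the brightest were Ppp2r2a, a regulatory subunit of protein phosphatase 2A (-0.02), and Lats2, a kinase of the Hippo pathway (0.0044). List medians ran from -0.11 to 0.13, beside -0.0037 over all named genes, of which 1.56% were called.

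No gene at the ends of the window was called. The first tested gene inside the lower end is Ctsg (cathepsin G, of neutrophils), at 7.98 Mb below, which read 5.71, 6.04 and 6.08 against 6.43, 6.87 and 6.35 (-0.61, adjusted p = 0.14). Just outside it Cma1, the mast cell chymase, read 5.45, 6.68 and 6.06 against 5.82, 5.03 and 6.00 and overlapped between genotypes. The last inside the upper end is Gfra2, a receptor of neurturin, at 6.68 Mb above (10.15, 9.89 and 9.84 against 10.11, 10.06 and 10.26). The next gene outside, Fndc3a, at 8.24 Mb above, overlapped too (10.55, 10.54 and 10.60 against 10.54, 10.59 and 10.44). Farther along the chromosome calls came back. From 8 to 12 Mb below Prss55, 6 of 73 genes (8.22%) were called, after 0 of 35 from 4 to 8 Mb below. Over all named genes 1.56% were called. Prss55-/- replicate 1 stood apart in 5 of the 73, beside 3.09% of all named genes. From 12 to 16 Mb below, 1 of 35 genes was called and replicate 1 stood apart in 4 of the 35. There the median SD over the Prss55-/- arrays was 0.11 and the median absolute log2 difference 0.17. From 8 to 12 Mb above, 0 of 26 were called.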

How the data were processed

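From the authors' scanner output (Agilent Feature Extraction 10.7, per the labels) the processed intensity of each spot was used, which is linear and already background-corrected. The uncorrected mean and background signals in the same output were used only for the normexp background alternative. A deposited matrix of log2 values, quantile-normalized by the authors, was an alternative. Control spots and flagged outlier spots were left out, signals under 1 were set to 1, and log2 intensities were quantile-normalized and averaged per probe. Probes that cleared the background on every array of a genotype (28615 of 41174) were tested between genotypes by limma 3.58.1 (R 4.3.3), two-sided, with Benjamini-Hochberg adjustment over all of them. A gene was called if any probe was, and its brightest tested probe gave its values and distance. The fit was tested on simulated data. The number of arrays limits the precision. Nothing says that the mice came from separate litters, and p-values measure the spread between these samples. The members, lists and naming rule (Prss55, called members, members within 1 Mb, those at the window's ends and the 2 brightest of each list) were chosen with earlier results of these data known. Other genes were named after their values were seen, and 1 item is not reported here. Alternatives covered scaling, background, the filter, the matrix, the slide as a random block, the replicate block, the methods' t-test and leaving out each array.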

Additional observations from a re-analysis of the deposited data

How the results depend on the processing

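With 75th percentile scaling, the deposited matrix, the slide as a random block, normexp background or only probes above background on all 6 arrays, 9 to 11 of the flanking genes were called, beside 11 in the fit reported. All of them were among those 11, except with normexp background, where 7 of the 9 were. There Trim13, Pinx1, Dpysl2 and Phyhip lost their calls. The cause of the changes was not tested. With normexp background 2 genes passed p and 2-fold (7 in the fit reported), and the bins from 2 to 4, 4 to 6 and 6 to 8 Mb held 2, 2 and 0 calls. The call of Phyhip from 6 to 8 Mb was lost, leaving 0, with the deposited matrix, the slide block, no filter on dim probes and the methods' t-test. With no filter 4 genes were called, 3 and 1 of them within 2 and from 2 to 4 Mb, and 2 had a called and an uncalled probe. With only probes above background on all arrays, 4 genes passed p and 2-fold. By the methods' t-test after adjustment 3 genes were called, 1 and 2 in the same bins, and all 3 had a called and an uncalled probe. The Prss55 difference was -0.90 under that test and missed the threshold (adjusted p = 0.071).

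A legend in the paper speaks of pairs of wt and Prss55-/- mice, and the labels do not say which arrays form a pair. Deviations of same-numbered arrays correlated at -0.05, -0.02 and -0.11, and those of differently numbered arrays at -0.06 to 0.11. With so few arrays such correlations cannot decide whether the mice were paired. With the replicate number as a block 1 gene was called (Dock5, which also had an uncalled probe), with 0 within 2 Mb, 1 from 2 to 4 Mb and 0 from 6 to 8 Mb, and 12 over all named genes, and the Prss55 difference of -0.90 had an adjusted p of 0.10.

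Leaving out each array in turn gave 1 to 20 called genes, with 0 to 6, 1 to 5, 0 to 6 and 0 to 3 in the bins from near to far, and 1 to 10 genes with a called and an uncalled probe. The highest values came without Prss55-/- replicate 1. The Prss55 difference ran from -0.96 to -0.84 and lost its call without Prss55-/- replicate 2 or 3 or wt replicate 1, with adjusted p values from 0.0097 to 0.070 over the 6 runs. Of the 12 called probes 11 lost the call without Prss55-/- replicate 2 and 11 without replicate 3. The nearest bin held 3 calls when 1 Mb wide and 10 when 4 Mb wide. At p and 2-fold the 4 bins held 1, 2, 2 and 2 genes. No direction of a called probe or of those past 2-fold reversed under any alternative run. Dim probes limit 9430085L16Rik and Gm21464.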
